A study of Mus musculus with 16 samples.

Results

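Dnmt3b, the gene of a de novo DNA methyltransferase, was followed through all of its annotated transcripts in E14 (ES-E14TG2a), a mouse embryonic stem cell line. Its transcripts were found by Ensembl identifier with the version removed, which gave 12 of the 116728 matched transcripts and 1 of the 35975 genes. The 16 libraries fell into 8 groups of 2, 1 group for each genotype, written WT or TKO, on each of days 0, 2, 4 and 7. On day 0 the cells of both genotypes were grown on fibronectin in N2B27 medium with inhibitors of Gsk3 and MEK, LIF and vitamin C. On days 2, 4 and 7 they had been moved to Fgf2, Activin A and knock-out serum, which turns stem cells into epiblast-like cells (EpiLCs), with an extra split on day 4. TKO is a common short name for cells that lack working Dnmt1, Dnmt3a and Dnmt3b. The labels leave it unexpanded and give neither the alleles nor the number of clones, so how the Dnmt3b gene itself was altered is not known here, and the transcript values below are no check of the label. Differences between the genotypes in Dnmt3b transcripts, shares and exon inclusion cannot be told apart from what an edited allele would itself give. The labels name the libraries of a group biological replicates without saying that they came from separate cultures, so p-values measure the spread between these libraries.

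De novo methyltransferases put methyl groups on cytosines that carried none, and Dnmt3b and Dnmt3a do this together when the epiblast implants and the genome becomes methylated again. Naive stem cells kept in inhibitors of Gsk3 and MEK hold little Dnmt3b, and the gene is among the best known markers of the step into the formative, postimplantation-like state. Its protein has a PWWP domain and an ADD domain, which read histone tails, and a catalytic domain at the carboxyl end. Alternative splicing gives forms with a complete catalytic domain and forms that lack a stretch of it and have little or no activity of their own, though they bind the active enzymes. In the literature the form with every coding exon is named Dnmt3b1, the form without the catalytic stretch Dnmt3b6, and forms without a short upstream exon Dnmt3b2 or, where the catalytic stretch is missing too, Dnmt3b3.

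The gene (ENSMUSG00000027478.15) lies on the plus strand of chromosome 2 at chr2:153649450-153687730 of GRCm38, by the GENCODE annotation. Of its 12 transcripts 10 are protein-coding (Dnmt3b-201 to Dnmt3b-210), and Dnmt3b-211 (756 bases) and Dnmt3b-212 (600 bases) are short fragments that hold a retained intron. The coding transcripts differ in 3 coding parts, and these are shown because they separate the protein forms compared below. The first is a 60-base coding exon (20 codons) at chr2:153670849-153670908, between the PWWP and ADD parts of the gene, present in 6 coding transcripts. The second is an alternative splice acceptor at chr2:153675726-153675728 that adds the 3 bases CAG (1 codon) in Dnmt3b-201 and Dnmt3b-207. The third is a pair of neighbouring exons of 70 and 119 bases, at chr2:153683608-153683677 and chr2:153684359-153684477, in the catalytic domain. The pair adds 189 bases (63 codons) without a shift of the reading frame and is present in 6 coding transcripts. The sequences, read from the GENCODE transcripts 5′ to 3′, show each part in capitals between 20 bases of the exons on either side in lower case, and below it the junction that forms when the part is skipped.
60-base exon included (Dnmt3b-201): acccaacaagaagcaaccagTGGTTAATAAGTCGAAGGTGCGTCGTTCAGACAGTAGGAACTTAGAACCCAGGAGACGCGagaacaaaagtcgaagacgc
60-base exon skipped (Dnmt3b-203): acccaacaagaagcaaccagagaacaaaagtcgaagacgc
3-base acceptor used (Dnmt3b-201): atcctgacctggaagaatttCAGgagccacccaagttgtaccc
3-base acceptor not used (Dnmt3b-202): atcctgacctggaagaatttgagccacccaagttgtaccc
Exon pair included (Dnmt3b-201): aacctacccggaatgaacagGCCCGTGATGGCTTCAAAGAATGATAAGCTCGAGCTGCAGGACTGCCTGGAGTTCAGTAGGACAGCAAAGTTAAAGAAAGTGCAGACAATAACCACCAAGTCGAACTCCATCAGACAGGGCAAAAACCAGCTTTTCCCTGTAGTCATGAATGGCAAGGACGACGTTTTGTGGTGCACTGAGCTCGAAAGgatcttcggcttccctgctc
Exon pair skipped (Dnmt3b-204): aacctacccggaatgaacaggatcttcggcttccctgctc

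By these parts the coding transcripts fell into 4 forms. The full form, with the 60-base exon and the exon pair, was that of Dnmt3b-201 and Dnmt3b-207 (860 codons, with the CAG) and of Dnmt3b-202 and Dnmt3b-210 (859 codons, without it). The form without the exon pair was that of Dnmt3b-204 and Dnmt3b-208 (796 codons). The form without the 60-base exon was that of Dnmt3b-203 and Dnmt3b-209 (839 codons), and the form without either that of Dnmt3b-205 and Dnmt3b-206 (776 codons). Outside the coding region a 115-base noncoding exon at chr2:153650785-153650899 was annotated in 5 transcripts, and Dnmt3b-207 lacks the 163 bases at the start and the 410 bases at the end that the other 9 coding transcripts share.

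**Figure D1:**
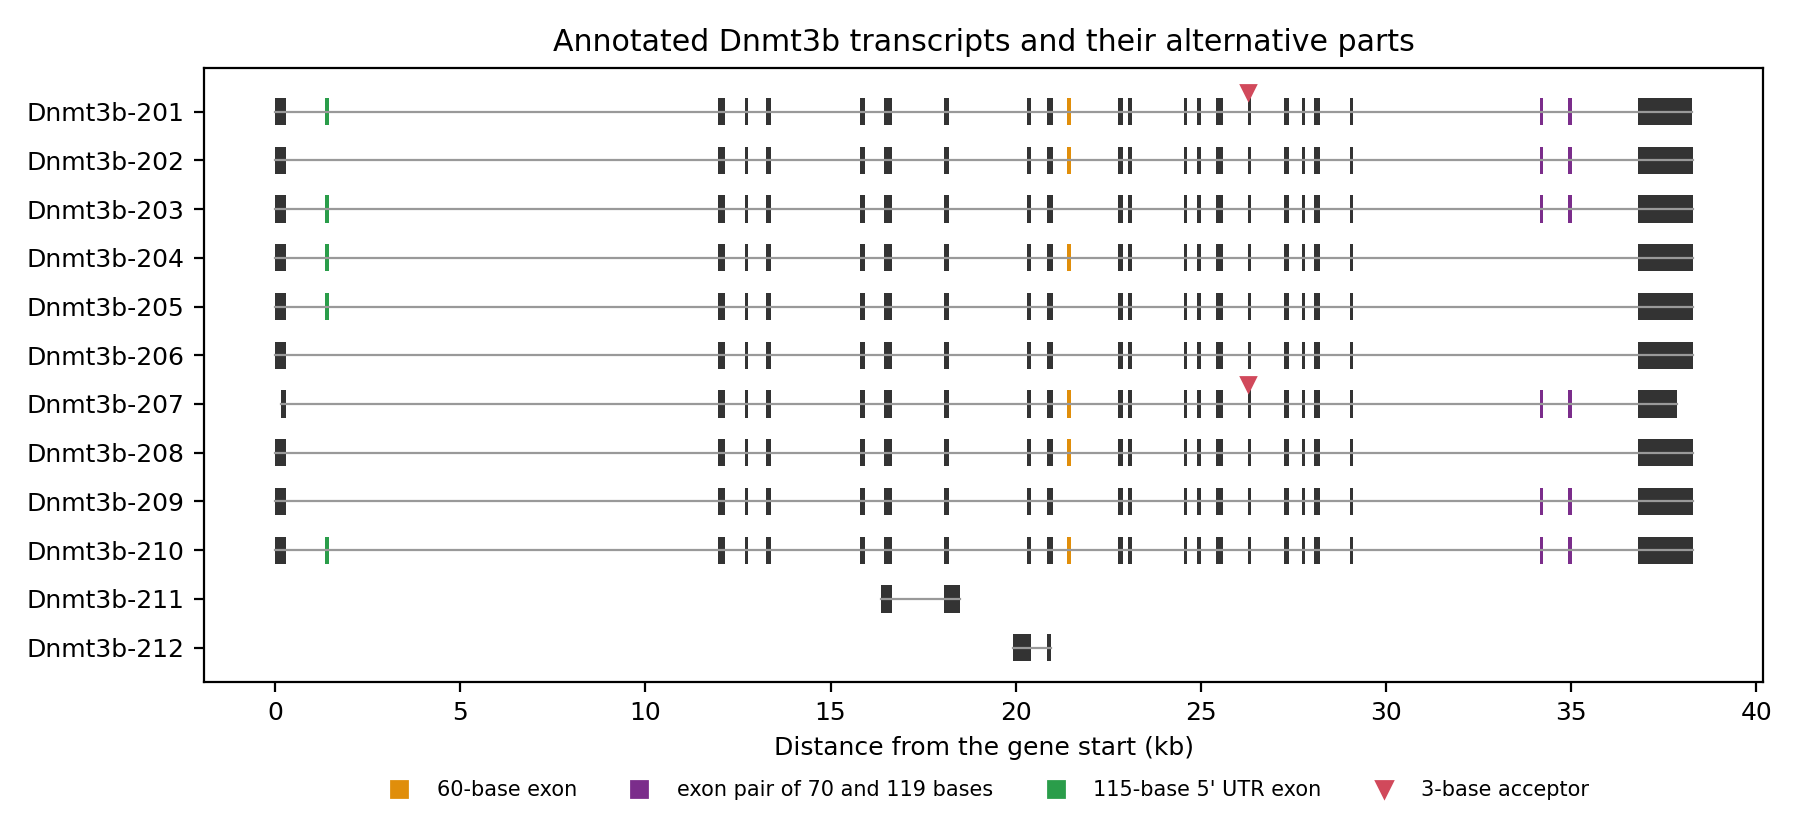
Exons of the 12 annotated Dnmt3b transcripts, drawn as boxes on the distance from the gene start in kilobases, with the alternative parts in colour and the 3-base acceptor as a triangle. The exon pair is present in 6 coding transcripts and the 60-base exon in 6, and the fragments Dnmt3b-211 and Dnmt3b-212 cover neither.

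Estimated counts summed to between 33168178 and 58197630 per library. Pou5f1, a transcription factor of all pluripotent cells, was at 592.5 CPM or above in every library. Sox2, Nanog and Lin28a, counted with it below, ran from 15.35 to 257.6, 83.6 to 792.4 and 27.7 to 684.2 CPM. By group mean Sox2 fell from 244.3 to 56.5 CPM in WT and from 209.4 to 16.1 CPM in TKO between days 0 and 7. Fgf5, a marker of the formative epiblast, was at 0 to 0.06 CPM on day 0 by group mean and at 84.0 CPM or above in the later groups. Both TKO libraries of each day had Dnmt1 transcripts below those of WT, at 12.0 to 17.4 TPM against 87.4 to 146 TPM in WT. TKO replicate 1 of day 4 stood apart in the other de novo enzyme: Dnmt3a was at 80.9 TPM in it and at 10.8 TPM in TKO replicate 2, against 114 and 146 TPM in WT. It was the TKO library of that day with the lower Dnmt3b level, and the Dnmt3b gene tests called with it are given below without it as well. The WT libraries of day 0 also differed from each other in some genes. Tet1 was at 29.3 TPM in replicate 1 and 98.5 TPM in replicate 2, and Hells at 103 and 205 TPM. Of the Dnmt3b TPM, Dnmt3b-201 held 42.8% in replicate 1 and 20.9% in replicate 2, and Dnmt3b-207 held 3.14% and 37.2%. In the WT libraries of day 2 the order was turned. Tet1 was then at 115 TPM in replicate 1 and 62.3 TPM in replicate 2, and Hells at 470 and 360 TPM. Dnmt3b-201 held 20.7% and 22.9% on that day, and Dnmt3b-207 held 33.8% and 26.0%.

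Dnmt3b transcripts were scarce in naive cells of both genotypes, rose steeply by day 2 and were lower in TKO than in WT from then on. In TPM, a transcript's level relative to all transcripts of its library after scaling for length, the gene was at 7.96 and 11.7 in the WT libraries of day 0 and at 11.8 and 12.3 in those of TKO. The TKO libraries lay just above the higher WT library, and all 4 were far below every later one. On day 2 the WT libraries were at 706 and 539 TPM and the TKO libraries at 406 and 386 TPM. Those of day 4 were at 613 and 479 TPM in WT and at 182 and 320.1 TPM in TKO. By day 7 they were at 415.4 and 414.6 TPM in WT and at 145 and 139.7 TPM in TKO. From day 2 on the lower WT library of each day was above the higher TKO library.

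**Figure D2:**
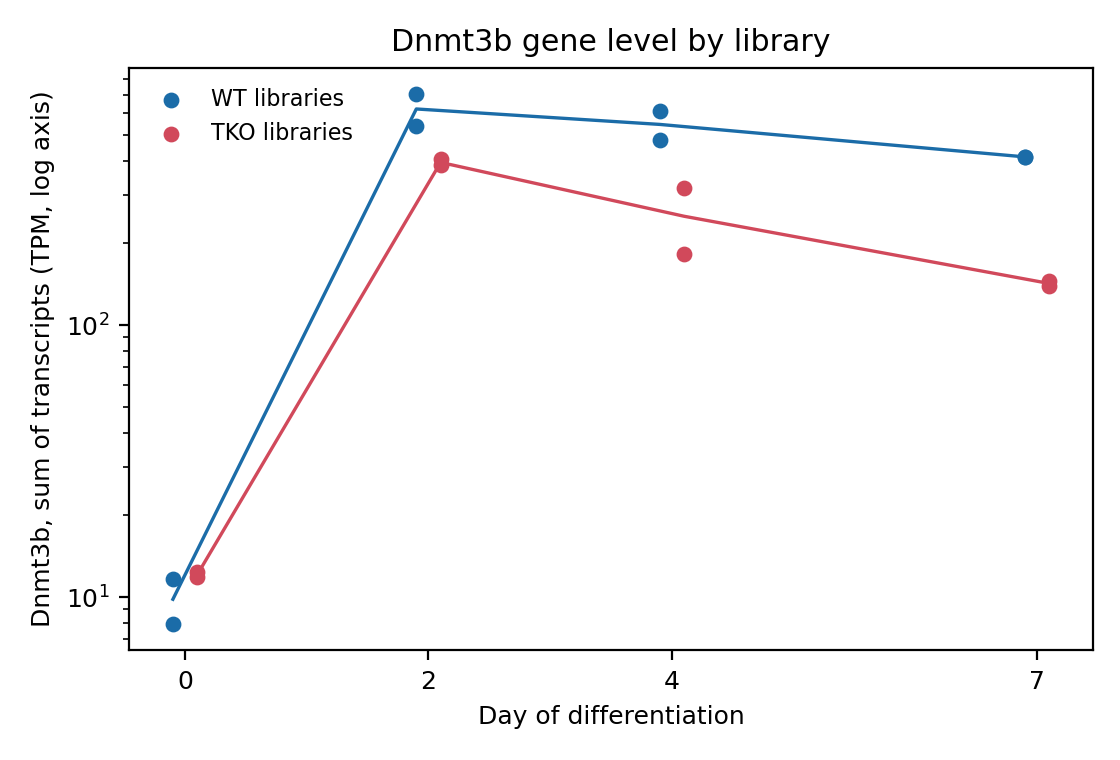
Dnmt3b level as the sum of its transcripts in TPM on a log axis, by day of differentiation; points are single libraries (2 per group) and lines join the group means. Both genotypes rise from about the same level on day 0, and the TKO libraries lie below those of WT on days 2, 4 and 7.

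The rise from day 0 to day 2 was 63.5-fold in WT (log2 fold change 5.99 ± 0.23 SE, edgeR quasi-likelihood test, adjusted p = 2.41e-10) and 33.0-fold in TKO (5.04 ± 0.22, adjusted p = 7.90e-10). Called genes made up 61.5% of the 18489 tested in that step in WT and 57% in TKO, so that a call alone does not set Dnmt3b apart there. Between days 2 and 4 the WT change was -0.38 ± 0.19 and was not called (adjusted p = 0.104; 54.4% of genes were called). In TKO the gene fell by 0.69 ± 0.19 on the log2 scale (adjusted p = 0.00892; 45.4% of genes were called). That call rested on TKO replicate 1 of day 4: without it the change was -0.33 (adjusted p = 0.0505), and the call was also lost without TKO replicate 1 of day 2 (0.0553), when low counts were not filtered (0.0685) and in a fit of the compared groups alone (0.140). Between days 4 and 7 the WT change was -0.50 ± 0.19 (adjusted p = 0.0538; 36.8% of genes were called), which passed the threshold in a fit of the compared groups alone (0.01229) and in DESeq2 (0.0353). In the same step TKO fell by 0.99 ± 0.19 (adjusted p = 0.00091; 45.4% of genes were called), and the change was -1.35 without TKO replicate 1 of day 4 (adjusted p = 1.97e-06) and -0.54 without replicate 2 (0.0125). On day 7 the level was still above that of day 0, by 34.6-fold in WT (5.11 ± 0.22, adjusted p = 4.11e-10; 66.2% of genes were called) and by 10.3-fold in TKO (3.36 ± 0.21, adjusted p = 1.12e-08; 67.8% of genes were called).

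Between the genotypes no difference was detected on day 0 (0.04 ± 0.20, adjusted p = 0.941; 12.7% of genes were called), at 29.1 ± 0.26 CPM (SD, n = 2) in TKO and 28.3 ± 1.41 CPM in WT. From day 2 on Dnmt3b was lower in TKO. It was 1.87-fold lower on day 2 (-0.91 ± 0.19, adjusted p = 0.00845; 13.4% of genes were called), a call that was lost without TKO replicate 2 of that day (-0.85, 0.0883). On day 4 it was 2.33-fold lower (-1.22 ± 0.19, adjusted p = 0.000444; 28.9% of genes were called), and without TKO replicate 1 of that day the difference was -0.87 (adjusted p = 0.000328). On day 7 it was 3.28-fold lower (-1.71 ± 0.19, adjusted p = 1.39e-05), on a day when 44.5% of genes were called. The TKO against WT difference itself changed from day 0 to day 4 (interaction -1.26 ± 0.27, adjusted p = 0.00720; 16.3% of genes were called) and from day 0 to day 7 (-1.75 ± 0.27, adjusted p = 0.000429; 27.1% of genes were called). For day 2 it missed the threshold (-0.95 ± 0.27, adjusted p = 0.0537; 7.56% of genes were called). Without TKO replicate 1 of day 4 the day 4 interaction was -0.93 (adjusted p = 0.00207); it missed the threshold without WT replicate 1 of day 0 (-1.20, 0.0514) and in a fit of the compared groups alone (0.0526). In bulk RNA, fewer cells of a type and less RNA per cell cannot be told apart.

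The cells around these values changed with genotype as well on the later days. Of the 4 markers of primitive streak and mesoderm, T, Mixl1 and Eomes were higher in TKO on day 7 by group mean (T at 521 against 47.2 CPM, Mixl1 at 80.3 against 6.86, Eomes at 150.2 against 75.9), and Mesp1 was at 0.24 CPM or below in every group. The summed level of the 4 was 740.2 to 764 CPM in the TKO libraries and 116 to 144 CPM in those of WT. The 4 pluripotent markers summed to 1072 to 1103 CPM in TKO and 1622 to 1668 CPM in WT on that day. By group mean Pou5f1 (593.9 against 801 CPM), Sox2 (16.1 against 56.5) and Lin28a (258.9 against 582.1) were lower in TKO. Nanog was not lower (218.8 against 205.4 CPM). The genotypes overlapped on day 7 in the summed formative and primed markers, at 482.3 to 486.8 CPM in TKO and 456.5 to 534.9 CPM in WT. Their neural and endoderm sums overlapped as well. Members of these sums differed both ways by group mean. Sox17 (4.72 against 35.0 CPM), Gata4 (5.82 against 23.9) and Gata6 (11.8 against 15.3) were lower in TKO, and Foxa2 (98.0 against 42.7) higher. Tubb3 (19.7 against 51.6) and Pax6 (1.45 against 2.63) were lower, Nes (419 against 393) and Sox1 (10.75 against 10.07) higher. Otx2 (98.0 against 196.7) and Pou3f1 (18.9 against 31.9) were lower, Lef1 (61.8 against 26.1), Fgf5 (289 against 225) and Sox3 (17.2 against 16.1) higher. Naive markers, 6 in all, summed to 52.0 to 84.5 CPM in TKO and 24.8 to 26.8 CPM in WT on day 4. On day 2 the pluripotent markers summed to 1968 to 1989 CPM in TKO and 2321 to 2540 CPM in WT, the 5 formative and primed markers to 435 to 464 CPM in TKO and 534 to 543 CPM in WT, and the primitive streak markers to 4.78 to 5.09 CPM in TKO and 7.08 to 7.60 CPM in WT. The part of these shifts in the Dnmt3b difference was not tested.

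All 12 transcripts passed the filter on low counts, and 10 reached a mean of 1 TPM in at least 1 group. The other 2, Dnmt3b-203 and Dnmt3b-205, had a highest group mean of 0.82 and 0.18 TPM. The full form made up most of the gene after day 0. Its 4 transcripts held 57.5% ± 0.79 (SD, n = 2) of the Dnmt3b TPM in WT on day 0 and 78.5% ± 0.32, 85.3% ± 1.03 and 81.2% ± 0.59 on days 2, 4 and 7. In TKO the share was 53.2% ± 1.39, 74.3% ± 0.19, 80.2% ± 0.68 and 69.6% ± 2.33 on the same days. The highest share was thus that of day 4 in both genotypes, and the lowest that of day 0.

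Among the full-form transcripts Dnmt3b-202, without the CAG, was nearly absent from the day 0 estimates and abundant later. On day 0 it was at 0.87 TPM in WT replicate 1, from 114 estimated counts, and at 0.01 TPM or below in the other 3 libraries. By day 2 it was at 166 and 161 TPM in WT and at 69.7 and 70.3 TPM in TKO. On day 4 it was the most abundant form by WT mean, at 233 and 175 TPM, against 41.0 and 91.1 TPM in TKO. On day 7 it was at 124 and 130.04 TPM in WT and at 25.7 and 24.4 TPM in TKO. The WT libraries were thus above both TKO libraries on each of the 3 later days, by group means of 163 against 70.03, 204 against 66.0 and 127 against 25.1 TPM.

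Dnmt3b-207, the full form with the CAG and short ends, was at 0.25 and 4.34 TPM in WT on day 0, so far apart that its day 0 level was not settled by these libraries. On day 2 it was at 238 and 140.3 TPM in WT and at 156 and 149 TPM in TKO, where the genotypes overlapped. They did not overlap on day 4, at 219.1 and 183 TPM in WT against 72.3 and 115.3 TPM in TKO, nor on day 7, at 169 and 166 TPM against 51.6 and 54.3 TPM. Dnmt3b-201, the same coding sequence with the long ends and the 115-base noncoding exon, was highest on day 2, at 146 and 124 TPM in WT and at 65.6 and 53.7 TPM in TKO. It was down to 66.9 and 52.9 TPM in WT on day 4 and to 41.9 and 41.9 TPM on day 7, against 27.8 and 49.5 TPM, then 21.0 and 20.7 TPM, in TKO. Reads from the shared coding exons cannot place a molecule on Dnmt3b-201 or Dnmt3b-207, and the tables hold no measure of how surely the reads were split, so levels of these transcripts are less certain than their sum. Dnmt3b-210, the remaining full-form transcript, was at 10.6 and 13.4 TPM in TKO on day 2 and at 4.08 and 2.28 TPM on day 4, and at 2.65 TPM or below in every other library.

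The form without the exon pair was the second most abundant. Dnmt3b-208, its main transcript, was at 2.67 and 3.36 TPM in WT and at 3.95 and 3.28 TPM in TKO on day 0. On day 2 it was at 109 and 89.7 TPM in WT and at 55.1 and 55.3 TPM in TKO. Day 4 brought it down to 36.6 and 30.0 TPM in WT and to 15.4 and 23.6 TPM in TKO. On day 7 it was at 48.8 and 40.0 TPM in WT and at 27.9 and 25.3 TPM in TKO, above the day 4 values of the same genotype, while the full form of both genotypes was below its day 4 mean. Dnmt3b-204, which differs from it by the 115-base noncoding exon, was at 2.68 and 3.90 TPM in TKO on day 2 and at 0.58 TPM or below in all other libraries.

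The forms without the 60-base exon were rare. Dnmt3b-209 was at 6.81 and 7.86 TPM in WT on day 2, and all 12 libraries of days 2 to 7 held between 2.42 and 7.86 TPM of it. Dnmt3b-206, without the 60-base exon and without the pair, was at 2.61 and 2.51 TPM in WT on day 2, at 0.54 and 0.36 TPM on day 4 and at 1.24 and 0.90 TPM on day 7. In TKO it was at 2.45 and 2.02 TPM, then 0.82 and 0.71 TPM, then 3.51 and 1.56 TPM. On days 4 and 7 both TKO libraries were above both WT libraries for this transcript, the opposite order to that of the abundant forms. Its day 4 levels were below 1 TPM. The fragments Dnmt3b-211 and Dnmt3b-212 ran up to 28.6 and 22.2 TPM, in WT replicate 1 of day 4, from at most 655 and 367 estimated counts.

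**Figure D3:**
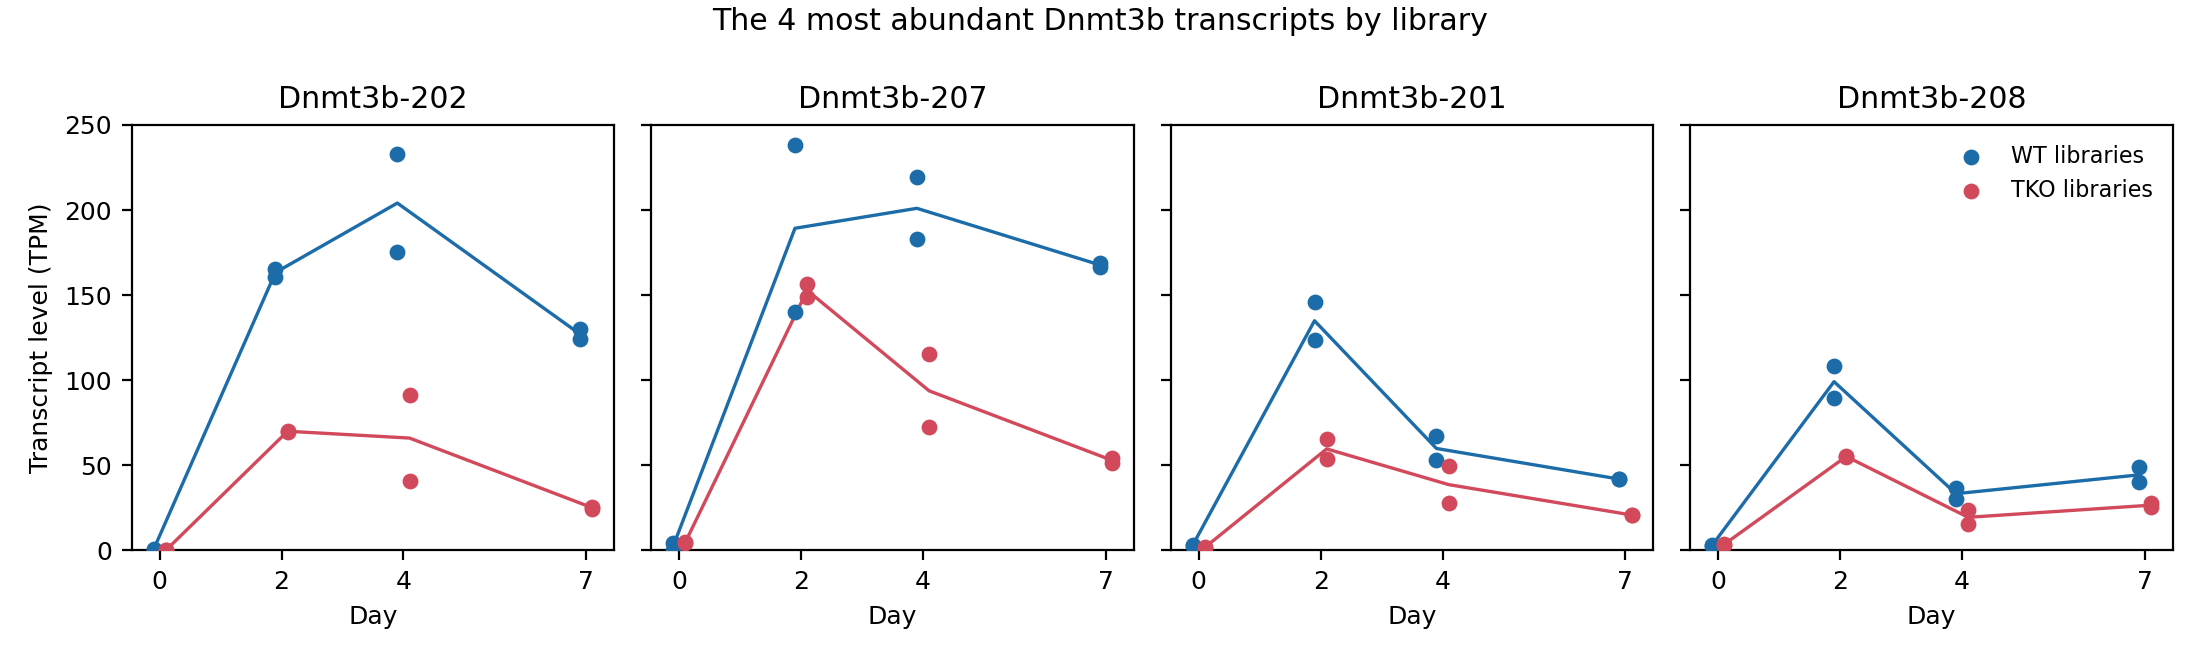
Levels in TPM of the 4 most abundant Dnmt3b transcripts by day; points are single libraries, lines join group means, and all panels share 1 linear axis from 0. Dnmt3b-202 and Dnmt3b-207 hold high levels in WT to day 7, while Dnmt3b-201 and Dnmt3b-208 peak on day 2 in both genotypes.

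Tested transcript by transcript over all 63290 transcripts kept, all calls from day 0 to day 2 were rises, 8 of 12 in WT (23.4% of all transcripts were called) and 10 of 12 in TKO (20.1%). Dnmt3b-208, the form without the exon pair, rose in both (5.04 ± 0.21, adjusted p = 1.19e-07 in WT; 3.93 ± 0.20, adjusted p = 3.50e-07 in TKO). From day 2 to day 4 the called transcripts fell, 3 in WT (15.8% of all called) and 2 in TKO (9.43%). Dnmt3b-208 fell by 1.75 ± 0.18 in WT (adjusted p = 0.000103) and fell by 1.47 ± 0.18 in TKO (adjusted p = 0.000590), and without TKO replicate 1 of day 4 the TKO change was -1.21 (adjusted p = 0.00239). The form without both parts, Dnmt3b-206, fell by 2.69 ± 0.40 in WT (adjusted p = 0.00102), and in TKO the change was -1.502 ± 0.38 (adjusted p = 0.0319). Dnmt3b-201 fell by 1.35 ± 0.33 in WT (adjusted p = 0.0178). From day 4 to day 7 no transcript was called in WT by edgeR, with 1 at an unadjusted p under 0.05 and 1 called by DESeq2 (6.63% of all transcripts were called), and 1 in TKO (9.12%), with 7 at an unadjusted p under 0.05 and 4 called by DESeq2. The TKO call was a rise of Dnmt3b-206 by 1.55 ± 0.38 (adjusted p = 0.0297). The calls of Dnmt3b-201, and of Dnmt3b-206 in TKO, were each lost when single libraries were left out (adjusted p up to 0.1204 for Dnmt3b-201 in WT, 0.190 and 0.278 for Dnmt3b-206 in TKO), among them TKO replicate 1 of day 4 (0.113 and 0.117 for Dnmt3b-206).

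Between the genotypes the same test called few members. On day 0 none of 12 was called by edgeR, with 3 at an unadjusted p under 0.05 and 3 called by DESeq2 (1.18% of all transcripts were called). On each of days 2, 4 and 7 the call was Dnmt3b-208 alone (0.36%, 3.17% and 8% of all transcripts were called), lower in TKO by -1.05 ± 0.17 (adjusted p = 0.0392), -0.77 ± 0.17 (0.0399) and -0.86 ± 0.17 (0.0119). The calls of days 2 and 4 did not hold with a replicate block (adjusted p = 0.0754 and 0.0671) or in a fit of the compared groups alone (0.213 and 0.243). The call of day 2 was lost without any 1 of the 4 libraries compared (adjusted p at least 0.127). That of day 4 was lost without TKO replicate 1 (-0.51, 0.198), WT replicate 1 (0.230) or WT replicate 2 (0.0935), and that of day 7 without WT replicate 1 (0.103) or TKO replicate 2 (0.102). Larger differences with larger errors were not called, such as -2.46 ± 0.78 for Dnmt3b-202 (adjusted p = 0.0904), -1.79 ± 0.69 for Dnmt3b-207 (0.169) and -1.13 ± 0.33 for Dnmt3b-201 (0.0638) on day 7. The common biological coefficient of variation, the spread between libraries that counting does not explain, was 0.457 over transcripts and 0.111 over genes.

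**Figure D4:**
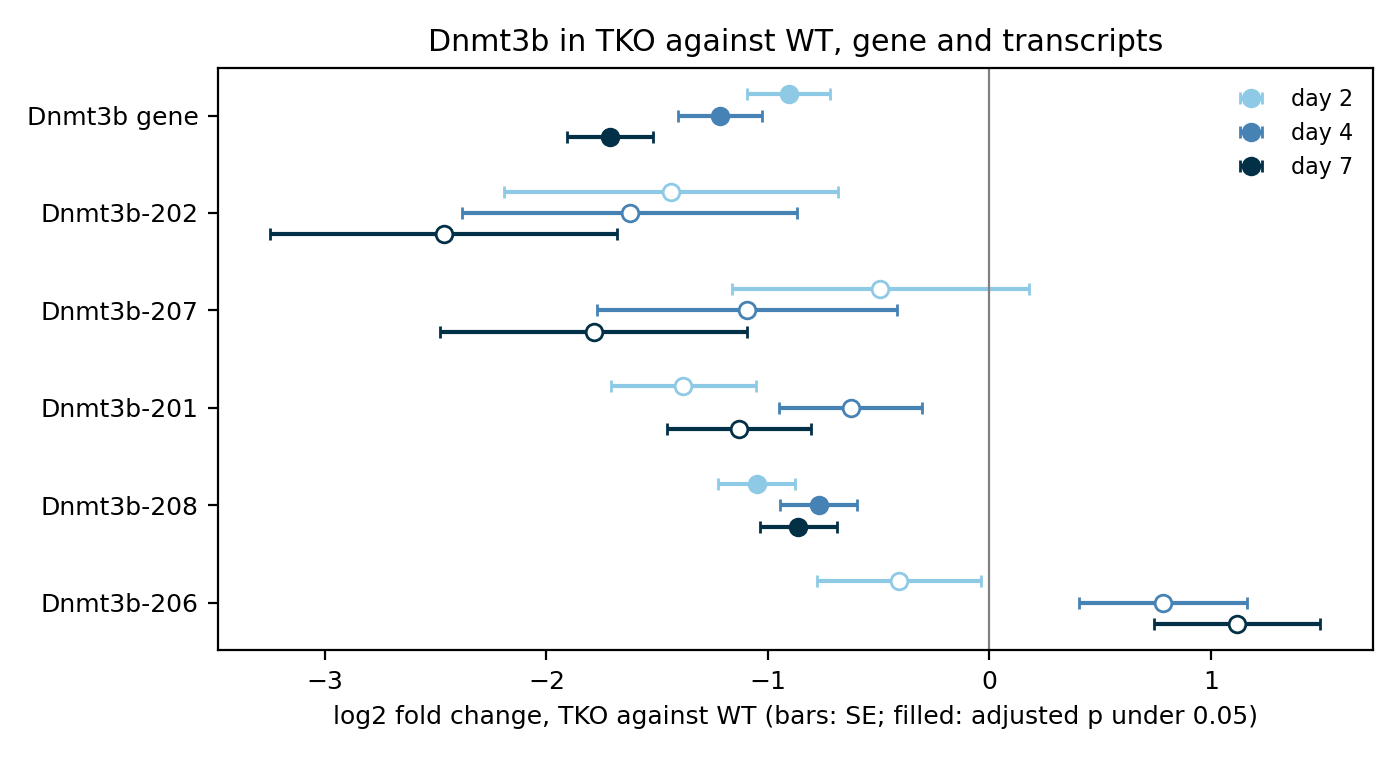
log2 fold change of TKO against WT for the Dnmt3b gene and 5 of its transcripts on days 2, 4 and 7, with bars for the SE; filled points have an edgeR adjusted p under 0.05. The gene and Dnmt3b-208 are filled on all 3 days. Dnmt3b-202 lies further from 0 on day 7 (-2.46) with a bar of 0.78. Dnmt3b-206 lies above 0 on day 4 (0.78) and day 7 (1.12) without a call.

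Exon inclusion, taken as the summed TPM of the transcripts that hold a part over the TPM of all Dnmt3b transcripts, sums over transcripts that share the part. The catalytic exon pair was included in 59.4% and 58.1% of WT TPM on day 0, in 79.3% and 80.2% on day 2, in 85.7% and 86.9% on day 4 and in 82.2% and 82.9% on day 7. In TKO the values were 54.2% and 52.2%, 76.0% and 75.5%, 82.0% and 82.3%, and 71.4% and 73.0%. Inclusion was thus highest on day 4 and lowest on day 0 in both genotypes, and on each day both TKO libraries were below both WT libraries. Over the 4 days the TKO minus WT difference was -6.01 percentage points, lower in TKO on 4 of 4 days (exact permutation test of the genotype labels within days, two-sided, p = 0.00154, the smallest that 1296 arrangements allow; adjusted p = 0.00823 over 8 exon parts). By day it was -5.53, -3.99, -4.14 and -10.4 points, and without the day 4 libraries the mean was -6.63 points (adjusted p = 0.0494 by the same exact test).

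The share of the fragments in the denominator differed as well. The retained-intron fragments, which hold none of these coding parts, were 5.92% of Dnmt3b TPM in WT and 10.9% in TKO on day 0, 3.77% and 8.83% on day 2, 7.52% and 9.43% on day 4, and 6.47% and 7.34% on day 7. Among protein-coding transcripts alone the exon pair was included in 62.5% of WT and 59.7% of TKO TPM on day 0, 82.9% and 83.1% on day 2, 93.3% and 90.7% on day 4 and 88.3% and 77.9% on day 7. On this scale the genotypes overlapped on day 2 and stood furthest apart on day 7, at 87.2% and 89.4% in WT against 76.7% and 79.1% in TKO, and the mean difference was -3.89 points (adjusted p = 0.0247 by the same exact permutation test). The form without the pair, Dnmt3b-204 with Dnmt3b-208, was 31.2% of all Dnmt3b TPM in WT and 31.5% in TKO on day 0, 16.05% and 14.8% on day 2, 6.13% and 8.09% on day 4, and 10.7% and 18.7% on day 7.

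**Figure D5:**
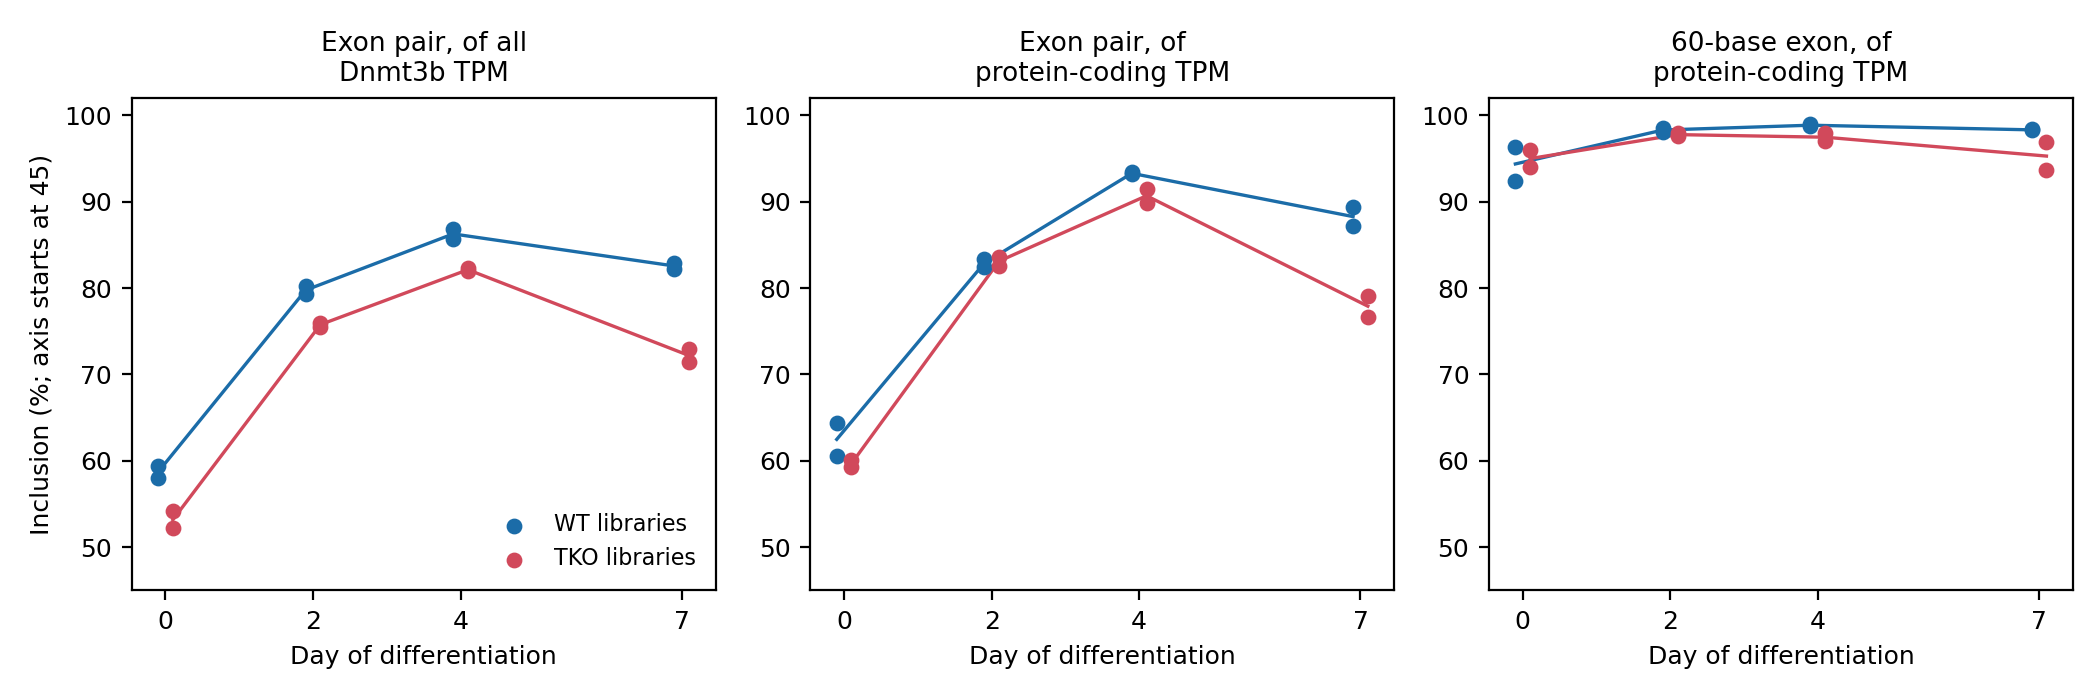
Inclusion in percent of the catalytic exon pair, of all Dnmt3b TPM and of protein-coding TPM, and of the 60-base exon, of protein-coding TPM, by day; points are single libraries, lines join group means, and the axis starts at 45%. Mean exon pair inclusion is highest on day 4 in both genotypes and on day 7 is 77.9% of protein-coding TPM in TKO and 88.3% in WT, while the 60-base exon stays at 93.7% or above in all libraries from day 2.

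The 60-base exon was included nearly throughout. Among protein-coding transcripts its inclusion was 92.4% and 96.4% in WT on day 0 and between 98.0% and 99.0% in the 6 later WT libraries, and 96.0% and 94.0% in TKO on day 0 and between 93.7% and 98.0% later. Over all Dnmt3b TPM it was lower in TKO on 4 of 4 days by a mean of -4.08 points (exact permutation p = 0.00309, adjusted p = 0.00823), and among protein-coding transcripts the difference was -1.08 points and not called (adjusted p = 0.19). The 3-base acceptor was used in 46.0% to 58.1% of Dnmt3b TPM over all 16 libraries, with a TKO minus WT difference of 2.44 points (exact permutation p = 0.184, adjusted p = 0.210). Dnmt3b-201 and Dnmt3b-207, which use it, both hold the exon pair, so by annotation its use cannot exceed inclusion of the pair. On day 0 its mean use was 52.0% beside 58.7% for the pair in WT, and 53.1% beside 53.2% in TKO. On day 7 it was 50.5% beside 82.6% in WT and 51.9% beside 72.2% in TKO. The 115-base noncoding exon was included in 31.9% of WT TPM on day 0 and in 22.1%, 11.1% and 10.2% on days 2, 4 and 7, and in 16.4%, 19.2%, 17.2% and 14.7% in TKO. Its mean difference of -1.96 points was not called (exact permutation p = 0.781), the TKO value being below that of WT on days 0 and 2 and above it on days 4 and 7. Of the 4 remaining parts, all of them at the transcript ends, the 3-base, 1-base and 4-base stretches that separate the annotated ends were lower in TKO (-9.56, -7.99 and -5.65 points, adjusted p = 0.00823, 0.00926 and 0.0469 by the exact permutation test), and the long ends that Dnmt3b-207 lacks were not called (-9.43 points, 0.0905). Dnmt3b-202 holds all 3 stretches, so these values contain its own level. Each value is a sum over the transcripts annotated with the stretch, and not a separate measure of the ends. The 4-base stretch is held by every coding transcript without the CAG. Among protein-coding transcripts it therefore mirrors the 3-base acceptor, and on that scale it was not called.

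Shares of single transcripts were compared in the same way for 10 transcripts. Dnmt3b-202 held a smaller share in TKO on 4 of 4 days, by -5.47, -8.96, -11.8 and -13.0 points (mean -9.80, exact permutation p = 0.00309, adjusted p = 0.0309 over 10 transcripts). On day 0 the difference rested on WT replicate 1, at 10.99%, since WT replicate 2 and both TKO libraries were at 0.05% or below, and without day 0 the mean difference was -11.2 points (exact permutation test, adjusted p = 0.0463). Its share was 5.49%, 26.6%, 37.3% and 30.6% in WT and 0.02%, 17.7%, 25.5% and 17.6% in TKO over the 4 days. Dnmt3b-204 held a larger mean share in TKO on 3 of 4 days (0.61 points, exact permutation p = 0.00772, adjusted p = 0.0386), as did the fragment Dnmt3b-212 on 4 of 4 (1.85 points, 0.0139, adjusted 0.0463). On day 0 the Dnmt3b-204 share was 2.95% in TKO replicate 2, from 35.8 estimated counts, and 0.05% in TKO replicate 1. That of Dnmt3b-212 came from 1.05 to 10.7 estimated counts per library on day 0. Its genotypes overlapped then (WT 1.01% and 5.95%, TKO 5.32% and 8.75%) and on day 7. Dnmt3b-211 missed the threshold (1.36 points, 0.0201, adjusted 0.0502). Without day 4 the differences were -9.14, 0.76 and 2.01 points for Dnmt3b-202, Dnmt3b-204 and Dnmt3b-212, and none was called (adjusted p = 0.139 for each by the exact test, whose smallest possible p is larger with fewer days). The shares of Dnmt3b-201, Dnmt3b-206, Dnmt3b-207, Dnmt3b-208, Dnmt3b-209 and Dnmt3b-210 were not called (adjusted p from 0.102 to 0.563).

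A test of usage, which asks in edgeR whether a transcript moved apart from the rest of its gene, ran over 57329 transcripts. On day 0 it called Dnmt3b-202 lower in TKO (adjusted p = 0.00946; 0.621% of all transcripts were called), a call that rested on the 114 counts of WT replicate 1 and was gone without that library (adjusted p = 1). On days 2, 4 and 7 it called none of 12 (0.415%, 0.307% and 0.654% of all), with 2, 3 and 0 at an unadjusted p under 0.05. From day 0 to day 7 it called a higher usage of Dnmt3b-202 in WT (1.85 on the log2 scale, adjusted p = 0.00340; 2.3% of all were called) and in TKO (adjusted p = 9.43e-07; 2.05% of all). The WT call was lost without WT replicate 2 of day 0 (0.0595) or of day 7 (0.0602); the TKO value is set against day 0 libraries at or near 0 counts, so its size is not given.

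Beside Dnmt3b, 19 genes of DNA methylation, its removal and its control were counted. Dnmt1 and Dnmt3a are among them, and both belong to the usual meaning of TKO. Their calls between genotypes, on any day, cannot be told apart from what edited alleles would give. On day 0 there were 4 lower and 1 higher in TKO (12.7% of all genes were called), with a median log2 fold change of 0.06 beside -0.03 over all genes. Dnmt1, which copies methylation after replication, was lower (-3.18 ± 0.10, adjusted p = 9.44e-10), as were Uhrf2, a relative of the Dnmt1 partner Uhrf1 (-0.997 ± 0.101, 5.49e-05), Dnmt3a (-3.53 ± 0.71, 0.0117) and Cdca7, a partner of the remodeller Hells (-0.37 ± 0.10, 0.0219). On day 2 there were 4 lower and 2 higher (13.4% of all genes were called; median -0.06 beside -0.01), among them Dnmt1 (-3.07 ± 0.10, 1.43e-09), Dnmt3a (-4.08 ± 0.61, 0.00320), the glycosylase Tdg, which excises oxidised methylcytosine (-0.34 ± 0.08, 0.0122), and the histone methyltransferase Nsd2 (0.33 ± 0.07, 0.00970).

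Day 4 had 2 lower and 5 higher (median 0.06 beside 0.01), when 28.9% of all genes were called, so the count is near the background. Dnmt1 was lower (-3.04 ± 0.10, 1.62e-09; -2.96 without TKO replicate 1), and Dnmt3l, the inactive partner that stimulates Dnmt3a and Dnmt3b, was higher (3.77 ± 0.36, 2.35e-05; 2.98 without TKO replicate 1). Dppa3, which keeps Uhrf1 from chromatin, was higher as well (2.45 ± 0.63, 0.0118), but not without TKO replicate 1 (1.45, 0.192), and so was the histone demethylase Kdm1b (0.52 ± 0.12, 0.00431; 0.44 and 0.0394 without TKO replicate 1). Without that library 2 genes of the list were higher and 3 lower. On day 7 there were 5 lower and 3 higher (median -0.08 beside 0.00), a count near the background of 44.5% of all genes called. Among the lower genes were Dnmt1 (-3.08 ± 0.10, 1.10e-10), Dnmt3a (-3.13 ± 0.60, 0.00209), the dioxygenase Tet3 (-1.42 ± 0.20, 9.97e-05) and Cdca7 (-0.38 ± 0.10, 0.00535). The calls of Dnmt3a and Cdca7 on day 0, of Nsd2 and Tdg on day 2 and of Dppa3 on day 4 were each lost in 3 or 4 of the settings tried, most of which leave out 1 library (adjusted p from 0.0529 to 0.192).

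Dnmt3b and its relatives ran different courses in time. In WT, Dnmt3a was at 8.07, 430.4, 130.2 and 75.2 TPM and Dnmt3l at 1.00, 344.5, 2.09 and 0.50 TPM by group mean on days 0, 2, 4 and 7, where Dnmt3b was at 9.81, 623, 546 and 415 TPM. All 3 genes were highest on day 2 by these means, and Dnmt3b had the highest level of the 3 on every day. From day 0 to day 2, 9 of the 19 genes rose and 6 fell in WT, and 9 rose and 5 fell in TKO, where 61.5% and 57% of all genes were called. From day 0 to day 7, 5 rose and 11 fell in each genotype (66.2% of all genes were called in WT and 67.8% in TKO; median -0.53 beside -0.03 over all genes in WT, -0.59 beside 0.04 in TKO). The falling genes included Prdm14, a naive factor that represses the de novo enzymes in stem cells, at 53.7 CPM on day 0 and 0.024 CPM on day 7 in WT and at 57.2 and 0.014 CPM in TKO. Uhrf1 fell too (-1.58 ± 0.07 in WT, 3.46e-10; -1.35 ± 0.07 in TKO, 1.48e-09).

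Dnmt3c, the rodent copy of Dnmt3b that follows it on the same strand at chr2:153696652-153729907, was at 0 to 0.43 TPM in the 16 libraries, so that few reads were assigned to it. Reads that match both copies could be split between them. Commd7, the nearest protein-coding gene on the other side (chr2:153616933-153632781, minus strand), was at 5.56 to 22.2 TPM and was not called between genotypes on any day (adjusted p from 0.0513 to 0.989). The antisense gene Dnmt3bos, which overlaps the start of Dnmt3b, had no transcript among those matched, so its level could not be given.

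Over the 16 libraries, 461 of 16151 other protein-coding genes had a Pearson correlation of log2 CPM with Dnmt3b above 0.9; the libraries share genotypes and days, and the values are a description. The 6 most alike were Map7d3, a microtubule-associated protein (r = 0.9898), Jph4, a junctophilin that ties the endoplasmic reticulum to the plasma membrane (0.989), Spats2 (0.988), Snurf (0.987), Cpsf6, a subunit of a pre-mRNA cleavage factor (0.984), and Sv2a, a synaptic vesicle glycoprotein (0.983). Map7d3 went from 0.18 CPM on day 0 to 27.5, 25.1 and 16.3 CPM on days 2, 4 and 7 in WT, and from 0.22 to 19.5, 14.5 and 5.88 CPM in TKO. Jph4 had a like course, from 0.27 to 38.6, 32.0 and 29.9 CPM in WT and from 0.47 to 31.6, 14.6 and 8.26 CPM in TKO. Over the 12 libraries without day 0 the correlation was above 0.9 for 4 of the 6, with Map7d3 at 0.968, and was 0.888 for Spats2 and 0.847 for Sv2a. Snurf and Snrpn share a transcript, so that the level of Snurf alone is uncertain.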

How the data were processed

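Messenger RNA of 16 libraries, 2 for each of 8 groups of genotype and day, was sequenced by the authors with a stranded kit, per the labels' protocols. The deposited tables hold, for each transcript, estimated counts and TPM (levels scaled for length and depth to 1 total in every library) made by the authors with kallisto, per the submitters' processing notes, which name GRCm38 and mm10. The kallisto version and the annotation release are not given in the sources used here. The effective length in the same deposited tables was used for 1 alternative. Of 119414 transcripts listed, 116728 (97.8%) matched GENCODE vM21 (GRCm38) by identifier with the version removed. Unmatched transcripts held 0.946% to 1.05% of the counts and were left out.

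Estimated counts were rounded, for genes after summing over transcripts, and fitted in edgeR 4.0.16 (R 4.3.3; TMM scaling, filterByExpr, robust quasi-likelihood test, 1 mean per group, all 16 libraries, 8 residual degrees of freedom). That kept 18489 genes and 63290 transcripts, and diffSpliceDGE tested usage for 57329. P-values were adjusted by Benjamini-Hochberg over all features and called under 0.05. CPM are counts scaled to a common library size after TMM, and genes were compared for likeness on log2 CPM with a prior count of 2. Isoform shares and exon inclusion were percentages of TPM, compared by an exact permutation of the genotype labels within days and adjusted over 10 transcripts or 8 parts. The tables hold no measure of how surely reads were split among isoforms, so that uncertainty is in no test. On simulated data with 200 genes changed 2-fold on day 7, the gene test recovered 97.5% of them (17577 tested), the transcript test 84% of 200 transcripts (56903) and the usage test 59% (51078). That simulation gave transcripts a spread near that of genes and left features with low counts unchanged. The common biological coefficient of variation over transcripts was 0.457 here, against 0.111 over genes. The simulated recovery for transcripts and usage therefore does not carry over to these data.

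Named transcripts had a mean of at least 1 TPM in a group, the 6 most similar genes were taken by Pearson correlation, and up to 4 pathway genes per comparison were named by lowest adjusted p. The members and lists were chosen with earlier results of these data known. DESeq2 1.42.0, other filters, fits of the compared groups alone, a replicate block, an effective-length offset, protein-coding transcripts only and leaving out libraries were the alternatives.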

Additional observations from a re-analysis of the deposited data

Results flagged for a closer look

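The TKO against WT difference of Dnmt3b was not the same on all days by the test of the difference itself. It changed from day 0 to day 4 by -1.26 on the log2 scale (edgeR quasi-likelihood test, adjusted p = 0.00720) and from day 0 to day 7 by -1.75 (adjusted p = 0.000429). Both tests share the day 0 libraries, and the day 4 value includes TKO replicate 1, whose Dnmt3a level of 80.9 TPM lay far above the 10.8 TPM of replicate 2.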

How the results depend on the processing

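Over 15 gene contrasts and 177 other settings, Dnmt3b kept its direction and its side of the threshold in 165. Between days 4 and 7 in WT its change was -0.48 in DESeq2 (adjusted p = 0.0353) and -0.48 in a fit of the compared groups alone (0.01229), past the threshold there alone. Between days 2 and 4 in TKO it was -0.63 without a filter on low counts (0.0685) and -0.69 with the compared groups alone (0.140), and from -1.14 to -0.33 with 1 library left out. The interaction of day 2 was -0.96 in DESeq2 (0.00594) and -0.95 with the compared groups alone (0.0104), past the threshold in both. That of day 4 was -1.26 with the compared groups alone (0.0526) and from -1.74 to -0.93 with 1 library left out. With 1 library left out the TKO against WT difference ran from -0.0125 to 0.115 on day 0, where the sign turned without WT replicate 1, and from -0.984 to -0.826 on day 2.

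The number of the 12 transcripts called between genotypes was 3 in DESeq2 and from 0 to 4 with 1 library left out on day 0. On day 2 it was 2 in DESeq2, and 0 with the replicate block, the compared groups alone or any library left out. On day 4 it was 0 with the block and with the compared groups alone, and 0 to 1 with 1 library left out. On day 7 it was 3 in DESeq2, 5 with the compared groups alone and 0 to 1 with 1 library left out. The usage of Dnmt3b-202 on day 0 ran from -6.24 to 1.74 with 1 library left out, and the sign turned without WT replicate 1.

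Among shares, in points of TKO minus WT, Dnmt3b-201 turned to 0.73 without day 0. Without day 4 the values were -9.14 for Dnmt3b-202, 0.76 for Dnmt3b-204 and 2.01 for Dnmt3b-212 (adjusted p = 0.139 for each), and without day 0 they were 0.32 for Dnmt3b-204 (0.0772), 1.28 for Dnmt3b-212 (0.0556) and 0.64 for Dnmt3b-206 (0.0463, past the threshold). As a share of estimated counts Dnmt3b-211 differed by 0.23 (0.0424, past the threshold). Inclusion of the 115-base exon turned to 2.54 without day 0, and that of the 60-base exon among protein-coding transcripts was -1.08 (0.190). The 1-base end part was -7.59 without day 4 (0.0556), and the 4-base end part was -4.42 in estimated counts (0.0691), -4.51 among protein-coding transcripts (0.0988) and -5.12 without day 4 (0.235). These p-values are from exact permutation tests, and leaving out a day raises the smallest p they can give. Leaving out day 0, and all alternatives for inclusion, were chosen after seeing the data. The causes of these changes were not tested.

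The labels do not say that a replicate number marks a shared batch. Over 28 pairs of groups the correlation of same-numbered libraries' deviations ran from -0.332 to 0.0743. With 2 libraries a group, the 2 deviations of a group mirror each other. A negative value is therefore a likeness of differently numbered libraries, and -0.332 was the strongest value of either kind. Whether it marks a shared batch was not tested, and the replicate block takes up same-numbered sharing only. With the replicate block the Dnmt3b difference on day 7 was -1.71 (adjusted p = 3.46e-05), and no gene contrast of Dnmt3b changed its call. With 2 libraries a group, a left-out library leaves 1, which is assumed to vary like the other groups. At day 0 the gene had 1001 to 1165 estimated counts, which limits the shares of that day, as does the gap between the WT libraries of that day.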
